A study of Mus musculus with 6 samples.

Results

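Keratins and the genes of the desmosome were described in EO771 cells, a mouse mammary carcinoma line, in which RNA sequencing compared 3 libraries of cancer stem cells (CSC) with 3 libraries of cells outside that class (non-CSC). The labels give no treatment, genotype, time or age for either group, and say neither how the CSC were separated nor whether replicates were separate cultures. The p-values therefore reflect the spread among libraries of a single cell line, which could be technical only. Members were chosen by symbol: keratins whose name ends in digits, together with desmoplakin, plakoglobin, plakophilins, desmogleins, desmocollins, periplakin and envoplakin. The pattern took 67 of the 49523 symbols in the count table, 50 keratins and 17 desmosome genes. Of these, 27 had counts that summed to 60 or more over the 6 libraries, 16 keratins and 11 desmosome genes, and values are given for those. Krt23, with 76 counts in all, lay just inside this threshold, and Krt222, with 58, just outside. Keratins whose symbol carries a letter after the digits, such as Krt6a, are not members.

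Keratins are the intermediate filament proteins of epithelial cells. A filament is built from pairs of a type I (acidic) and a type II (basic) keratin, and simple epithelia such as mammary luminal cells are known for the pair Krt8 and Krt18 with Krt7 and Krt19, while basal, stratified epithelial cells are known for Krt5 and Krt14. Desmosomes anchor these filaments at the cell border: the desmosomal cadherins (desmogleins and desmocollins) hold neighbouring cells together, the armadillo proteins plakoglobin and plakophilins bind their tails, and desmoplakin, a plakin, ties the plaque to keratin.

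Levels are CPM, counts scaled to a common library total with TMM factors, and a change was called at an adjusted p under 0.05 in edgeR's quasi-likelihood test over all 17630 genes that passed a low-count filter. All 27 members with values passed that filter. Library totals were 27099879 to 28205651 counts in CSC and 32204112 to 35971131 in non-CSC. The label of a mammary epithelial tumour line was checked against markers. Krt8, Krt18 and Krt19 were among the abundant members, Epcam averaged 10.3 ± 0.192 CPM in CSC and 21.3 ± 0.646 CPM in non-CSC (SD, n = 3 each), and Cdh1, which encodes E-cadherin, was near absent at 0.752 ± 0.140 CPM in CSC and 0.952 ± 0.110 CPM in non-CSC (SD, n = 3 each). Of the leukocyte markers, Cd3e and Adgre1 had no count, and Ptprc had 2, 6 and 5 counts in CSC and 1, 2 and 6 in non-CSC, while Itgam, the only one tested, was higher, with 290, 291 and 281 counts in CSC and 25, 21 and 29 in non-CSC (log2 fold change of 3.77, adjusted p = 1.61e-17). Of the fibroblast markers, Lum had no count and Col1a2 had 1 over the 6 libraries together, while Dcn was abundant in both groups.

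Of the 27 members, 15 were called higher and 5 lower in CSC, and 7 were not called. Over all genes tested, 66.5% were called, 33.4% higher and 33.1% lower, so a call by itself did not set the members apart. A call with at least a 2-fold change was reached by 7 members, Krt90, Krt87, Krt7, Dsg4 and Ppl higher and Krt23 and Krt5 lower, where 12.1% of all genes tested reached it, 8.01% higher and 4.09% lower. Of these, Krt90, Dsg4 and Krt23, and Krt88 among those not called, were under the filter's level of 0.331 CPM (10 counts in a library of median size) in all 3 libraries of one group. They passed only through the group where they were high and so had to differ, and their tests and their place in these counts support nothing. Of the 16 members with a mean of 5 CPM or more, 12 were called and 2, Krt7 and Ppl, reached 2-fold, where 75.5% and 6.56% of genes at that level did. The 3 CSC and 3 non-CSC values did not overlap for 21 members, and for 69.3% of all genes tested. These 21 include Krt90, Dsg4, Krt23 and Krt88, which had to separate, so their place there supports nothing either. The medians and counts that follow include them as well. The median log2 fold change was 0.19 over the members and 0.01 over all genes tested. Keratins included 10 higher, 2 lower and 4 not called, with a median of 0.28, and desmosome genes 5 higher, 3 lower and 3 not called, with a median of 0.05. Fewer cells of a type and less RNA per cell cannot be told apart in these bulk libraries.

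**Figure D1:**
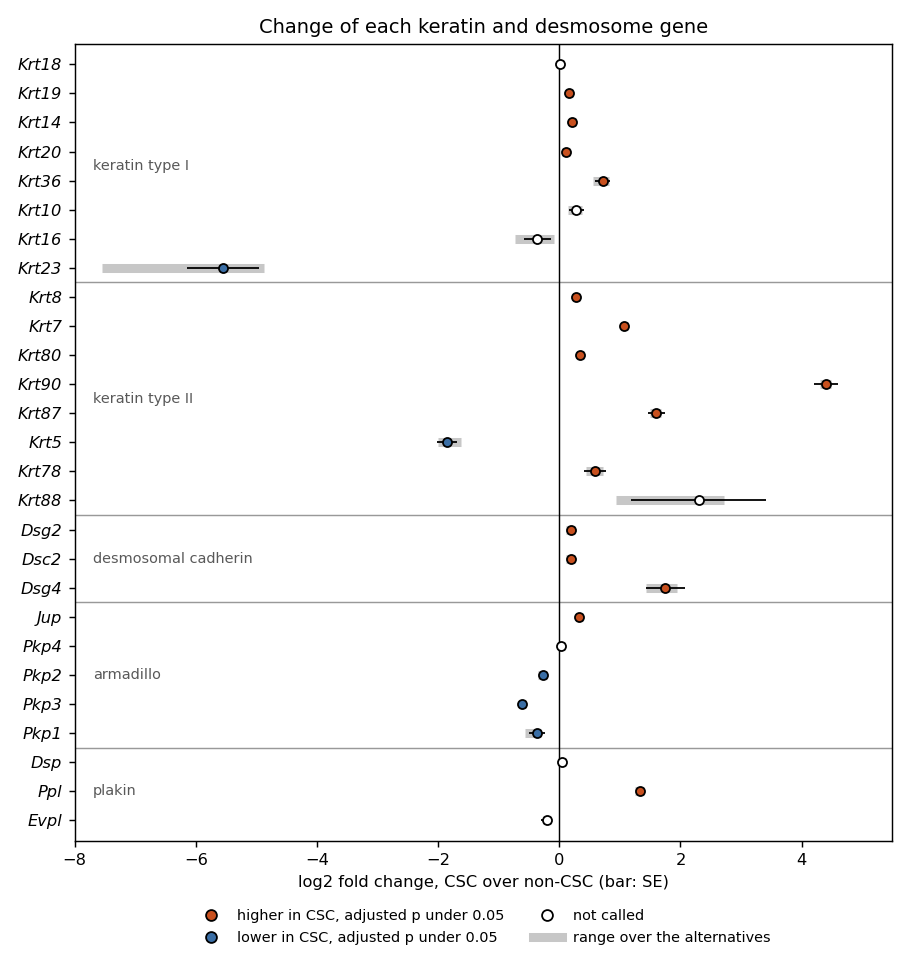
Log2 fold change of CSC over non-CSC (x axis) for the 27 members with values (y axis, grouped by role), with the standard error as a bar and the range over the alternatives in grey. Filled points passed an adjusted p under 0.05, and the points farthest from 0 are Krt23 on the left (-5.56) and Krt90 on the right (4.40).

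The abundant type II keratins were higher in CSC, and Krt7 moved most among them. Krt7 encodes the type II keratin of ducts and other simple epithelia. It had 1078, 1054 and 1039 CPM in the CSC libraries, against 509.5, 503 and 491 CPM in the non-CSC libraries. The groups lay far apart relative to their spread, with means that differed 2.11-fold (log2 fold change of 1.08 ± 0.034 (SE), adjusted p = 6.15e-18). Krt8, the main type II keratin of simple epithelia, had 896, 859 and 835 CPM in the CSC libraries, against 752, 681 and 712 CPM in the non-CSC libraries. Its CSC values were all above its non-CSC values, by a smaller margin than those of Krt7 (log2 fold change of 0.27 ± 0.039 (SE), adjusted p = 1.76e-06). Krt80, a type II keratin of many epithelia, had 241, 232 and 228 CPM in the CSC libraries, against 186, 183 and 181 CPM in the non-CSC libraries, again without overlap (log2 fold change of 0.35 ± 0.036 (SE), adjusted p = 9.61e-09). As a share of 50-base words of its transcript, Krt8 shared 26.9% with other annotated transcripts, most with the pseudogene Krt8-ps, so its counts could have been divided between both.

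Of the abundant type I keratins, Krt18 was not called, and Krt14, Krt19 and Krt20 were called higher by 1.16-fold or less. Krt18, the partner of Krt8, had 1272, 1306 and 1222 CPM in the CSC libraries, against 1279, 1239 and 1246 CPM in the non-CSC libraries. These values overlapped and the change was not called (log2 fold change of 0.014 ± 0.034 (SE), adjusted p = 0.741). It was called higher with library-size scaling (edgeR adjusted p = 0.0421, in a range of 0.0421 to 0.999), and its direction turned under 2 alternatives. Krt19, a small type I keratin of simple epithelia, had 733, 761 and 709 CPM in the CSC libraries, against 677, 678 and 616 CPM in the non-CSC libraries, and was called higher by a margin of 1.12-fold (log2 fold change of 0.16 ± 0.040 (SE), adjusted p = 0.00128). Krt14, a basal type I keratin, had 259.5, 265 and 253 CPM in the CSC libraries, against 224, 225 and 223 CPM in the non-CSC libraries, without overlap (log2 fold change of 0.21 ± 0.035 (SE), adjusted p = 1.22e-05). It shared 14.4% of its 50-base words with other transcripts, most with Krt16. Krt20, known from gut and urothelial cells, had 122, 124 and 117 CPM in the CSC libraries, against 119.7, 106 and 112 CPM in the non-CSC libraries. Its groups overlapped and its call was weak (log2 fold change of 0.10 ± 0.042 (SE), adjusted p = 0.0351). It was lost without CSC replicate 1 (edgeR adjusted p = 0.131), CSC replicate 2 (0.143), non-CSC replicate 2 (0.276) or non-CSC replicate 3 (0.0958), and with DESeq2, without a low-count filter and with a chromosome offset, in a range of 0.00118 to 0.286 over 17 alternatives.

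**Figure D2:**
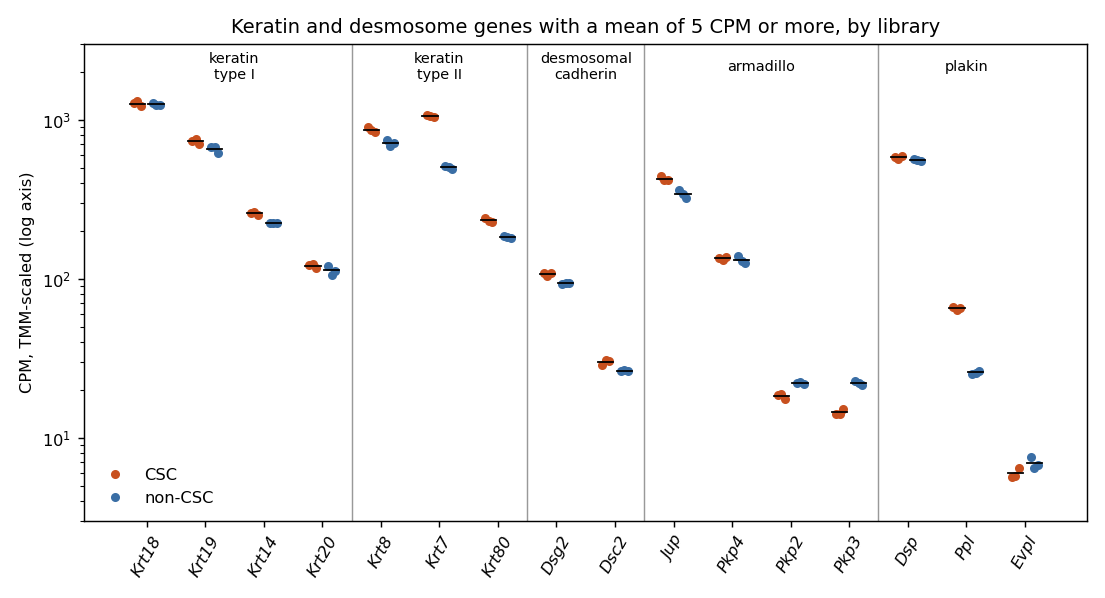
TMM-scaled CPM on a log axis for the 16 members with a mean of 5 CPM or more, with a point per library and a line at each group mean, CSC left of non-CSC. Krt7 and Ppl show the widest gaps between groups, and Krt18, Krt20, Pkp4, Dsp and Evpl overlap.

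The ratio of Krt18 to its partner Krt8 was lower in every CSC library. The log2 ratio of Krt18 to Krt8 counts within a library, which needs no scaling between libraries, was 0.50, 0.61 and 0.55 in the CSC libraries, against 0.77, 0.86 and 0.81 in the non-CSC libraries. All CSC ratios were below all non-CSC ratios, a difference of -0.26, for which an exact two-sided permutation test over the 6 libraries gave p = 0.1, the smallest that 20 assignments allow. To set type I against type II as a whole, CPM were divided by the length in kb of each gene's longest protein-coding transcript in GENCODE M21. On this scale type II keratins summed to 765 ± 21.3 CPM per kb in CSC and 537 ± 19.7 in non-CSC (SD, n = 3 each), and type I keratins to 1569 ± 51.3 in CSC and 1486 ± 33.6 in non-CSC (SD, n = 3 each). The type I sum was 2.05 ± 0.0688 times the type II sum in CSC and 2.77 ± 0.0761 times in non-CSC (SD, n = 3 each). The ratios in single libraries were 2.00, 2.13 and 2.03 in CSC and 2.72, 2.85 and 2.73 in non-CSC, without overlap. These are descriptions with no test, and they rest on annotated lengths, which run from 902 bases for Krt88 to 4094 bases for Krt7. Whether the 4094-base transcript of Krt7, with a coding sequence of 1371 bases, is the one these cells make was not tested. Per kb of the longest coding sequence instead, a scale added after seeing the data, the type I sum was 1.22 ± 0.0400 times the type II sum in CSC and 1.80 ± 0.0355 times in non-CSC (SD, n = 3 each).

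Within the keratin total per kb of transcript, Krt18 held the largest share of any member in both groups, 37.8 ± 0.391% in CSC and 43.2 ± 0.450% in non-CSC (SD, n = 3 each). Krt7 held 11.1 ± 0.211% in CSC and 6.06 ± 0.0718% in non-CSC, and Krt8 18.9 ± 0.480% in CSC and 18.05 ± 0.607% in non-CSC (SD, n = 3 each). The Krt7 share depends on the length used. Per kb of coding sequence Krt7 held 22.5 ± 0.348% in CSC and 13.2 ± 0.148% in non-CSC, and Krt8 17.2 ± 0.387% in CSC and 17.5 ± 0.603% in non-CSC (SD, n = 3 each), so that on this scale Krt7 exceeded Krt8 in CSC and not in non-CSC. Krt18 held the largest share on this scale too, 29.1 ± 0.410% in CSC and 35.7 ± 0.387% in non-CSC (SD, n = 3 each). Without dividing by length, the 16 keratins summed to 4558 ± 114 CPM in CSC and 3664 ± 88.6 CPM in non-CSC (SD, n = 3 each). The summed levels in single libraries were 4624, 4623 and 4427 CPM in CSC and 3764, 3631 and 3596 CPM in non-CSC. The 11 desmosome genes summed to 1384 ± 26.5 CPM in CSC and 1233 ± 36.3 CPM in non-CSC (SD, n = 3 each). Both sums were higher in every CSC library than in any non-CSC library, but a few genes made up most of each difference. Krt7 averaged 1057 CPM in CSC and 501 CPM in non-CSC. Jup averaged 426 CPM in CSC and 341 CPM in non-CSC, and Ppl 65.1 CPM in CSC and 25.8 CPM in non-CSC. Among the others, Krt18, Dsp and Pkp4 were not called, and Krt5, Krt23, Pkp1, Pkp2 and Pkp3 were called lower.

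**Figure D3:**
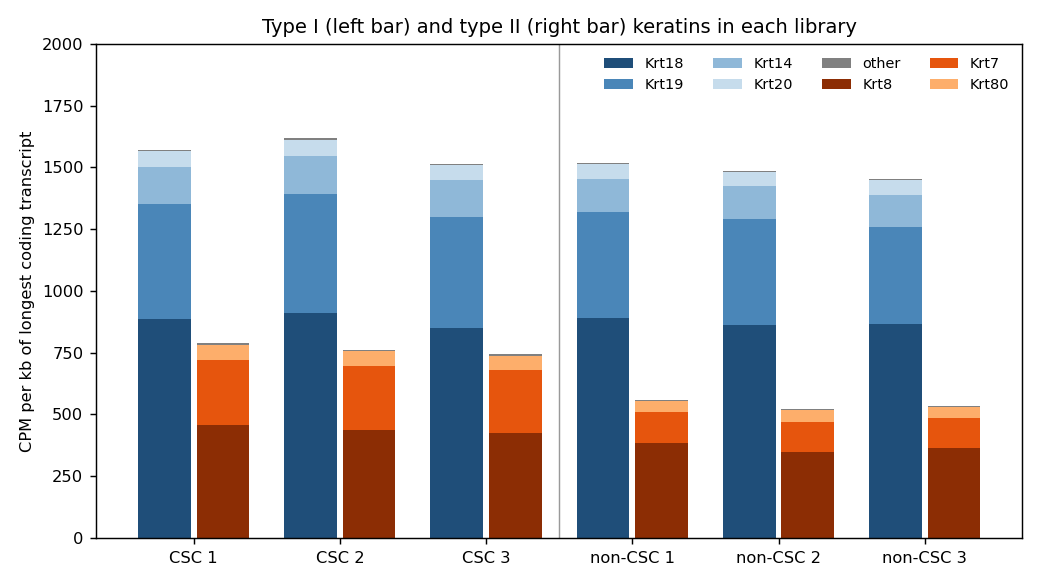
Stacked level in CPM per kb of the longest coding transcript (y axis) for type I keratins (left bar) and type II keratins (right bar) in each of the 6 libraries, CSC on the left. The type II bars stand between 746 and 788 in CSC and between 520.3 and 559 in non-CSC, and most of that gap is the Krt7 segment.

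Among keratins of low level, Krt90 was higher and Krt5 lower. Krt90, a type II keratin of the same chromosome 15 cluster, had 5.23, 5.13 and 4.27 CPM in the CSC libraries, against 0.255, 0.231 and 0.198 CPM in the non-CSC libraries, from 144, 145 and 124 counts in CSC and 8, 8 and 7 in non-CSC. Its means differed 21.4-fold (log2 fold change of 4.40 ± 0.19 (SE), adjusted p = 3.27e-15). Having passed the filter only through its CSC libraries it had to differ, so the test adds nothing to the counts. Krt5, the basal type II partner of Krt14, had 1.16, 1.20 and 0.655 CPM in the CSC libraries, against 3.92, 3.43 and 3.56 CPM in the non-CSC libraries. It fell in CSC without overlap (log2 fold change of -1.85 ± 0.17 (SE), adjusted p = 1.29e-09), while Krt14 rose. Krt5 was scarce beside Krt14 in both groups, at 0.00299 times the Krt14 level per kb in CSC and 0.0126 times in non-CSC. It shared 8.52% of its 50-base words with other transcripts, most with Krt6a.

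The promoter windows of 3 type II keratins that changed, Krt7, Krt90 and Krt5, and of the pair Krt8 and Krt18 are shown because these genes lie in a single cluster of chromosome 15 and did not move alike. Each runs from 250 bases before to 50 after the annotated start, 5′ to 3′ on the gene's strand, from RefSeq (GRCm38.p6). The Krt7 window is at chr15:101412153-101412452 (plus strand) and that of Krt90 at chr15:101562901-101563200 (minus strand). The Krt8 window is at chr15:102004293-102004592 (minus strand), that of Krt18 at chr15:102027966-102028265 (plus strand) and that of Krt5 at chr15:101712856-101713155 (minus strand). Capitals mark matches, on either strand, to a TATA box, a GC box, a CCAAT box, an AP-1 motif or an E-box.
Krt7: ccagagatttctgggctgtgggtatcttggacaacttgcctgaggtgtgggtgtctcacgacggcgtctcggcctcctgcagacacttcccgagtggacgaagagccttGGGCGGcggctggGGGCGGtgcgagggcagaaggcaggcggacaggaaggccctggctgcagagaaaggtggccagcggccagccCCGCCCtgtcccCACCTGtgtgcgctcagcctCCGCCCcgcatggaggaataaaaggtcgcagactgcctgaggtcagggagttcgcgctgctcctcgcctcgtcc
Krt90: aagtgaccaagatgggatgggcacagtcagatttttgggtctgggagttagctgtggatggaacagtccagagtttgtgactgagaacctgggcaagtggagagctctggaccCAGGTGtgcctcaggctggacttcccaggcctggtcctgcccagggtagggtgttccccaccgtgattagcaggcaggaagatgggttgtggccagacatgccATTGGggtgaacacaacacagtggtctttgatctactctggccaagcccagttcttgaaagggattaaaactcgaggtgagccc
Krt8: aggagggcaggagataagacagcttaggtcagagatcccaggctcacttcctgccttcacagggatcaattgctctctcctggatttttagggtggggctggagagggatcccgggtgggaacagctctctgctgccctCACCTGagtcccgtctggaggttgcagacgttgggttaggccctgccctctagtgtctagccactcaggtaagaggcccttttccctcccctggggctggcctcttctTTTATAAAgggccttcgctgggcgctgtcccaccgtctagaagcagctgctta
Krt18: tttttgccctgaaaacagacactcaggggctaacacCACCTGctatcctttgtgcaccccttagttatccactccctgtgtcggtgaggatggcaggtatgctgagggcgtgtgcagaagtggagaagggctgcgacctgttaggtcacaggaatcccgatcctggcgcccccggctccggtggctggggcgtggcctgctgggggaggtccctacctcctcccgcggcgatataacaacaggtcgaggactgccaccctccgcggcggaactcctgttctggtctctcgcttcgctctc
Krt5: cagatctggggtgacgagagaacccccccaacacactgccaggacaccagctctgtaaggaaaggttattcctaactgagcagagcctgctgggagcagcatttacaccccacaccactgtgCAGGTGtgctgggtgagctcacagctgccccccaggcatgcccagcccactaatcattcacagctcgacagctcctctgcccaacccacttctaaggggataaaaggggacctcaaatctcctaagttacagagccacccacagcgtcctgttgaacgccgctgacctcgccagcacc
The Krt7 window held 4 GC boxes and an E-box, and the Krt90 window a CCAAT box and an E-box. The Krt8 window held an E-box and a TATA box whose matches on the 2 strands overlap. These begin at -3 and -1 from the annotated start and so run across it. The Krt18 and Krt5 windows held an E-box each and no other match. All 5 windows, whether the gene rose, fell or was not called, thus held the E-box. Of the 27 members 14 had an entry, with 15 windows. The E-box, searched as CACCTG, was in 10 of these (66.7%) and in 20.2% of all 32851 windows of the table. The GC box, searched as GGGCGG, was in 4 (26.7%) and in 35.7% of all. The CCAAT box, searched by those letters, was in 5 (33.3%) and in 37.4% of all. The TATA box, searched as TATAAA, was in 3 (20%) and in 13.6% of all windows. The AP-1 motif, searched as TGANTCA, was in 0 of the 15 and in 7.81% of all. A match is a description of letters only. Members without an entry were Dsc2, Dsg2, Dsg4, Evpl, Krt16, Krt19, Krt80, Krt87, Krt88, Pkp1, Pkp2, Pkp3 and Ppl.

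The other scarce type II keratins were Krt87, Krt78 and Krt88. Krt87, a hair keratin, had 3.45, 3.71 and 3.83 CPM in the CSC libraries, against 1.37, 1.04 and 1.22 CPM in the non-CSC libraries, without overlap (log2 fold change of 1.60 ± 0.14 (SE), adjusted p = 8.38e-10). It lies 3683 bases beyond the end of Krt7 on the opposite strand, and 36.9% of its 50-base words are shared, most with Gm49425, so its level is uncertain. Krt78, whose annotated start lies 86 bases beyond the end of Krt8 on the same strand, had 1.60, 1.38 and 1.62 CPM in the CSC libraries, against 0.797, 1.18 and 1.05 CPM in the non-CSC libraries (log2 fold change of 0.59 ± 0.19 (SE), adjusted p = 0.00775). That call was lost with DESeq2 (adjusted p = 0.0613, in a range of 0.00353 to 0.0613 over 16 alternatives). Whether transcripts of the abundant neighbours contributed to the counts of Krt87 and Krt78 was not tested. Krt88 had 0.653, 0.459 and 3.10 CPM in the CSC libraries, against 0.319, 0.259 and 0.283 CPM in the non-CSC libraries. Its CSC replicate 3, with 90 counts, stood apart from the other two, with 18 and 13. All 3 CSC values lay above the non-CSC values, and the change was not called (log2 fold change of 2.30 ± 1.12 (SE), adjusted p = 0.143). Without that library its log2 fold change was 0.94 (edgeR adjusted p = 0.0265), and it was also called with a replicate block, with the robust setting off, with limma-voom and with DESeq2, over a range of 0.00216 to 0.279. Krt88 passed the filter only through its CSC libraries, so these calls are no support for a difference.

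The scarce type I keratins were Krt36, Krt10, Krt16 and Krt23. Krt23 had 0, 0 and 1 counts in the CSC libraries, against 27, 25 and 23 counts in the non-CSC libraries. Pooled by group these are 1 count in CSC and 75 in non-CSC, a CSC to non-CSC ratio of 0.0159 with an exact 95% interval of 0.000398 to 0.0915, which covers counting error only. The gene was called lower (adjusted p = 2.15e-08), and its fitted log2 fold change of -5.56 depends on the prior count and was -7.55 without CSC replicate 3, which held its only CSC count. Since the gene passed the filter only through its non-CSC libraries, the test is no support for the difference. Krt36, a hair keratin, had 5.73, 5.41 and 5.07 CPM in the CSC libraries, against 3.79, 2.54 and 3.54 CPM in the non-CSC libraries, without overlap (log2 fold change of 0.72 ± 0.12 (SE), adjusted p = 2.46e-05). Krt10, known from differentiated epidermis, had 3.59, 3.78 and 4.07 CPM in the CSC libraries, against 3.28, 3.55 and 2.60 CPM in the non-CSC libraries, and missed the threshold although its groups did not overlap (log2 fold change of 0.28 ± 0.12 (SE), adjusted p = 0.0503). It was called without non-CSC replicate 2 (edgeR adjusted p = 0.0210) and with 4 other settings of scaling or filter, over a range of 0.0168 to 0.310. Krt16, induced in stressed epidermis, had 0.762, 1.38 and 2.00 CPM in the CSC libraries, against 1.75, 1.84 and 1.75 CPM in the non-CSC libraries. Its CSC values were widely spread and the change was not called (log2 fold change of -0.36 ± 0.23 (SE), adjusted p = 0.181), although it was without CSC replicate 3 (log2 fold change of -0.73, edgeR adjusted p = 0.00565, in a range of 0.00565 to 0.698). Without CSC replicate 1 the log2 fold change was -0.087. Krt16 shared 37.6% of its 50-base words with other transcripts.

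**Figure D4:**
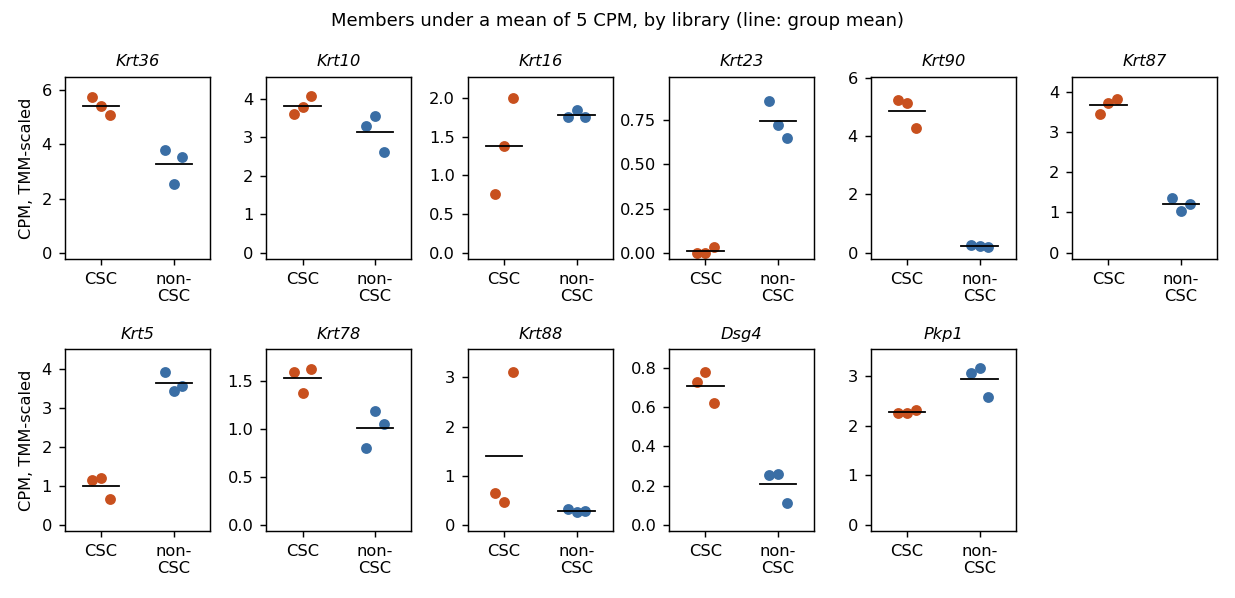
TMM-scaled CPM by library for the 11 members with values and a mean under 5 CPM, with a line at the group mean and a y axis of its own in each panel, CSC left of non-CSC. Krt90, Krt87, Krt36, Krt78, Dsg4, Krt10 and Krt88 sit higher and Krt23, Krt5 and Pkp1 lower in all CSC libraries, and 1 CSC library of Krt88 stands apart.

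Desmosomal cadherins were slightly higher in CSC. Dsg2, the desmoglein of simple epithelia, had 109, 105 and 109 CPM in the CSC libraries, against 93.3, 94.6 and 93.9 CPM in the non-CSC libraries, a 1.14-fold difference without overlap (log2 fold change of 0.19 ± 0.037 (SE), adjusted p = 6.80e-05). Dsc2, the desmocollin of simple epithelia, had 28.7, 31.0 and 30.5 CPM in the CSC libraries, against 26.3, 26.8 and 26.3 CPM in the non-CSC libraries, likewise without overlap (log2 fold change of 0.19 ± 0.052 (SE), adjusted p = 0.00313). The Dsc2 call was lost with a chromosome offset, which sets each gene against the median of its chromosome (edgeR adjusted p = 0.0650, in a range of 0.000190 to 0.0650). Genes tested on chromosome 18, where the cadherin genes lie, had a median log2 fold change of 0.07. It was 0.05 on chromosome 11, which holds 25 of the 26 type I keratins, and 0.01 on chromosome 15, which holds Krt18 and all 24 type II keratins. Per kb, Dsg2 stood at 2.87 times Dsc2 in CSC and 2.85 times in non-CSC. Dsg4, a desmoglein of the hair follicle, was higher at a very low level, with 20, 22 and 18 counts in CSC and 8, 9 and 4 in non-CSC (log2 fold change of 1.75 ± 0.33 (SE), adjusted p = 6.09e-05). It too passed the filter only through its CSC libraries, so its test is no support for the difference.

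The armadillo proteins of the plaque were split. Jup, which encodes plakoglobin, the armadillo protein shared with adherens junctions, had 439.9, 417 and 419.8 CPM in the CSC libraries, against 359.8, 343 and 321 CPM in the non-CSC libraries. It rose 1.25-fold without overlap (log2 fold change of 0.32 ± 0.040 (SE), adjusted p = 3.17e-07). Plakophilins strengthen the plaque by linking the cadherin tails to desmoplakin. Pkp3, the plakophilin of simple and stratified epithelia, had 14.2, 14.1 and 15.1 CPM in the CSC libraries, against 22.6, 21.9 and 21.6 CPM in the non-CSC libraries, and fell most of the plakophilins (log2 fold change of -0.61 ± 0.059 (SE), adjusted p = 4.38e-09). Pkp2, which is also known from heart muscle, had 18.5, 18.8 and 17.5 CPM in the CSC libraries, against 21.9, 22.4 and 21.7 CPM in the non-CSC libraries, lower without overlap (log2 fold change of -0.27 ± 0.057 (SE), adjusted p = 0.000234). Pkp1, the plakophilin of stratified epithelia, had 2.25, 2.26 and 2.31 CPM in the CSC libraries, against 3.06, 3.17 and 2.57 CPM in the non-CSC libraries (log2 fold change of -0.36 ± 0.13 (SE), adjusted p = 0.0176). The Pkp1 call was lost without non-CSC replicate 2 (edgeR adjusted p = 0.0745) and with DESeq2 (adjusted p = 0.0949), over a range of 0.000531 to 0.0949. Pkp4, the more distant relative p0071, had 136, 131 and 136 CPM in the CSC libraries, against 139.6, 128 and 125 CPM in the non-CSC libraries. The groups overlapped and no change was called (log2 fold change of 0.036 ± 0.041 (SE), adjusted p = 0.447), though it was called higher with library-size and upper-quartile scaling, over a range of 0.0307 to 0.945. Pkp4 was the most abundant of the 4 per kb, at 29.1 ± 0.569 CPM per kb in CSC and 28.4 ± 1.64 in non-CSC (SD, n = 3 each), and Pkp3 stood at 0.170 times Pkp4 in CSC and 0.266 times in non-CSC. Jup exceeded each plakophilin per kb, with 133 ± 3.86 CPM per kb in CSC and 106 ± 6.04 in non-CSC (SD, n = 3 each).

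Of the plakins, Ppl was higher, and Dsp and Evpl were not called. Ppl, which encodes periplakin, a plakin of the cornified envelope and of keratin filaments, had 66.5, 63.4 and 65.3 CPM in the CSC libraries, against 25.3, 25.6 and 26.4 CPM in the non-CSC libraries. The groups lay 2.52-fold apart (log2 fold change of 1.33 ± 0.046 (SE), adjusted p = 3.04e-17), the widest gap among the 16 members with a mean of 5 CPM or more. Evpl, which encodes its partner envoplakin, had 5.70, 5.76 and 6.45 CPM in the CSC libraries, against 7.55, 6.43 and 6.73 CPM in the non-CSC libraries. These values overlapped by a small margin and the change missed the threshold (log2 fold change of -0.21 ± 0.093 (SE), adjusted p = 0.0545). It was called lower without CSC replicate 3 (edgeR adjusted p = 0.0322), without non-CSC replicate 2 (0.0320) and under 3 further settings, over a range of 0.0184 to 0.192. Per kb, Ppl stood at 11.2 times Evpl in CSC and 3.85 times in non-CSC. Dsp, which encodes desmoplakin, the plaque protein that binds keratin filaments, had 585, 565 and 589 CPM in the CSC libraries, against 569, 561 and 551 CPM in the non-CSC libraries. The groups overlapped and no change was called (log2 fold change of 0.049 ± 0.034 (SE), adjusted p = 0.218), though it was called higher with upper-quartile scaling, library-size scaling or a stricter filter, over a range of 0.00539 to 0.762. Jup stood at 2.20 times Dsp per kb in CSC and 1.82 times in non-CSC.

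Genes that work with keratins and desmosomes are given by list, and their counts of calls stand against 33.4% called higher and 33.1% called lower of all genes tested. Of 9 cytolinkers and hemidesmosome genes, all tested, 2 were higher and 3 lower, with a median log2 fold change of 0.03. Itgb4, the integrin subunit that binds keratin through plectin at hemidesmosomes, rose by 0.58 on the log2 scale, with 616 ± 15.5 CPM in CSC and 411 ± 19.97 CPM in non-CSC (SD, n = 3 each). Its partner subunit Itga6 fell by 0.78 on the log2 scale, with 847 ± 7.31 CPM in CSC and 1449 ± 25.1 CPM in non-CSC (SD, n = 3 each). The epiplakin gene Eppk1 fell by 0.24 and the tetraspanin gene Cd151 by 0.20 on the log2 scale. Plec, which encodes plectin, was not called (log2 fold change -0.024, edgeR adjusted p = 0.544). Of 14 filament and desmosome partners, 12 were tested, 4 higher and 2 lower, with a median of 0.07. Perp, a desmosome membrane protein gene, rose by 0.38, and Prkca, a kinase known to act on desmosomes, by 0.38 on the log2 scale. Pnn, which encodes pinin, fell by 0.62, and Ctnna1, which encodes alpha-catenin of the adherens junction, by 0.29 on the log2 scale.

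Of 16 other intermediate filament genes, 9 were tested, 4 higher and 4 lower, with a median of 0.13. Vim, which encodes vimentin, the filament protein of mesenchymal cells, averaged 867 ± 16.0 CPM in CSC and 1271 ± 38.7 CPM in non-CSC (SD, n = 3 each), and fell by 0.55 on the log2 scale (edgeR adjusted p = 1.68e-12). The lamin genes Lmnb2 and Lmnb1 fell by 0.55 and 0.18, and Lmna rose by 0.13 on the log2 scale. Among 21 epithelial transcription and splicing regulators and their repressors, 11 were tested, 3 higher and 4 lower, with a median of -0.18. The epithelial factor genes Ehf and Elf3 rose by 0.85 and 0.19, and the repressor genes Snai1 and Zeb1, which bind E-boxes, fell by 0.35 and 0.31 on the log2 scale. Whether Snai1 or Zeb1 acted on any member was not tested. The list went both ways: the epithelial factor genes Grhl2 and Klf4 fell by 1.49 and 0.18 on the log2 scale, Grhl1 rose by 1.06, and Zeb2 was not called (log2 fold change 0.12, edgeR adjusted p = 0.152). Trp63, the basal epithelial factor known to drive Krt5 and Krt14, had 8, 9 and 8 counts in CSC and 0 in each non-CSC library, where a count of 0 allows up to 0.0849 to 0.0956 CPM.

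Markers of other cell types are given beside these values. Their counts of calls stand against 33.4% called higher and 33.1% called lower of all genes tested. The 5 mammary basal markers, Trp63 among them, were under the filter and summed to 0.586 to 1.09 CPM in CSC and 0.519 to 0.765 CPM in non-CSC. The 7 luminal markers summed to 230.0 to 239 CPM in CSC and 186 to 189 CPM in non-CSC, with 2 of 3 tested higher (Cd24a and Esr1) and Epcam lower. Most of that sum was Cd24a, with 187 ± 3.47 CPM in CSC and 132 ± 2.86 CPM in non-CSC (SD, n = 3 each), and Csn2 had no count. Of 6 fibroblast markers, the 3 tested (Dcn, Pdgfra and Col1a1) were higher. This list summed to 1196 to 1243 CPM in CSC and 555 to 589 CPM in non-CSC, nearly all of it Dcn. Of 6 leukocyte markers, only Itgam was tested, with 10.2 ± 0.432 CPM in CSC and 0.741 ± 0.118 CPM in non-CSC (SD, n = 3 each), and the list summed to 9.89 to 10.7 CPM in CSC and 0.951 to 1.33 CPM in non-CSC. Of 10 cornified envelope genes 3 were tested and all were higher, where 33.4% of all genes tested were. Among these, Sprr2a1 passed the filter only through its CSC libraries and had to differ, so its place in this count supports nothing. Sprr1a had 486 ± 49.2 CPM in CSC and 356 ± 18.7 CPM in non-CSC (SD, n = 3 each), while Lor had no count and Flg had 1 in all libraries together. The 6 keratinocyte markers, Sprr1a among them, summed to 432 to 521 CPM in CSC and 336 to 373 CPM in non-CSC, nearly all of it Sprr1a. Of 4 endothelial markers 1 was tested and it was lower, Tek had no count, and the list summed to 0.389 to 0.517 CPM in CSC and 0.481 to 0.797 CPM in non-CSC. The part of these markers in the keratin and desmosome values was not tested.

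The remaining 40 members had fewer than 60 counts in all, and no change is given for them. No count was found for 9 of them, Dsc3, Dsg3, Krt1, Krt26, Krt27, Krt72, Krt74, Krt77 and Krt82, which allows up to 0.103 to 0.109 CPM in a CSC library and 0.0849 to 0.0956 CPM in a non-CSC library. A further 18 had 1 to 9 counts. Of the 13 with 10 or more, the basal keratin genes Krt15 and Krt17 had 15 and 10 counts over the CSC libraries, against 25 and 20 over the non-CSC libraries. Krt42 had 4 counts in CSC and 28 in non-CSC, Krt222 had 26 in CSC and 32 in non-CSC, Krt12 had 16 in CSC and 17 in non-CSC, and Krt79 had 10 in CSC and 9 in non-CSC. Dsg1b had 31 counts in CSC and 10 in non-CSC. The hair keratin genes Krt31, Krt81, Krt83, Krt84 and Krt86 had 17, 9, 12, 12 and 9 counts in CSC, against 6, 1, 4, 0 and 1 in non-CSC. Krt13, of wet stratified epithelia, had 11 counts in CSC and 2 in non-CSC. Desmoglein and desmocollin genes of stratified epithelia (Dsg1a, Dsg1b, Dsg1c, Dsg3, Dsc1 and Dsc3) were thus at or near 0 in both groups, beside Dsg2 and Dsc2.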

How the data were processed

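Total RNA was taken up in Trizol and made into libraries with a NEB Next Ultra II kit, per the labels' protocols. The authors deposited raw read counts per gene symbol, not normalized. The submitters' processing notes name GRCm38. Aligner, counter, annotation, strand setting and filters were not given in the sources used here. Without strand, reads of overlapping antisense genes cannot be told apart. Exons of Dsg2, Dsp, Krt10, Krt5, Krt7, Krt8, Krt80 and Krt90 overlap exons of other genes over 1.09 to 6.91% of their bases. That overlap was counted on either strand, so it is not a share of antisense genes alone.

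The whole table was fitted with edgeR 4.0.16 (quasi-likelihood, robust, no covariate, R 4.3.3) after filterByExpr and TMM scaling, adjusting by Benjamini-Hochberg over the 17630 genes tested. Standard errors are the log2 fold change divided by the root of F. The method was tested on simulated counts of 17326 genes, of which 192 were changed. Of the changes of 0.5 on the log2 scale 70.8% were called, and 11 unchanged genes were called. In the real data 66.5% of genes tested were called, so the simulation does not test scaling under so broad a change. Alternatives were RLE, upper-quartile and library-size scaling, 3 other filters, DESeq2 1.42.0, limma-voom (limma 3.58.1), the robust setting off, each library left out, a replicate block, and a chromosome offset. Replicates of a group differed beyond sampling noise (chi-square per degree of freedom 3.21 to 7.30) and are used as separate samples, although that spread can arise in library preparation.

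The members and lists were chosen with earlier results of these data known. All members with 60 counts are named, and of each list up to 4 called members averaging 5 CPM or more, by size of change. Named outside that rule are Plec, Trp63, Grhl1, Grhl2, Klf4, Zeb2, Col1a1 and the markers at or near 0. Lengths, overlaps and 50-base words came from GENCODE M21 (GRCm38). Counts without molecular identifiers are not independent molecules, and intervals cover counting error only.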

Additional observations from a re-analysis of the deposited data

How the results depend on the processing

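Over 17 alternatives, 18 to 24 members were called, against 20 of 27 in the analysis as reported, and 13 to 19 were higher and 4 to 7 lower. With the filter at a mean of 50 counts, where 19 were called, Dsg4, Krt16, Krt23, Krt78 and Krt88 were not tested. Of all genes tested under the same alternatives, 41.7% (no filter beyond 1 count) to 73.1% (mean of 50 counts) were called. Of the 20 called members, 16 kept call and direction under every alternative that gave a value, and Krt20, Krt78, Pkp1 and Dsc2 lost the call under at least 1. Among the 16, Krt90, Krt23 and Dsg4 passed the filter only through the group where they were high, so that their calls held is no support. All 7 members that were not called gained a call under at least 1. Of 454 member values under an alternative, 417 kept direction and side of the threshold. Direction reversed only for 2 members that were not called: Krt18, with a log2 fold change of -0.012 without a low-count filter and -0.014 (without CSC replicate 2) to 0.035 (without CSC replicate 3) when a library was left out, and Pkp4, with -0.013 under the chromosome offset and -0.0039 (without non-CSC replicate 3) to 0.072 (without non-CSC replicate 1) when a library was left out. With a filter at a mean of 50 counts, 1 member in place of 2 was at least 2-fold lower, since Krt23 was not tested. The CSC minus non-CSC difference of summed keratin CPM was 894, and 1062 with upper-quartile and 1083 with library-size scaling. For desmosome genes it was 151, and 204 and 211 with these scalings, which shifted the median of all genes to 0.07 and 0.08. Same-numbered libraries did not deviate together (r = -0.026 to -0.011), and with the replicate block 21 members were called. For the Krt18 to Krt8 difference the block, by construction, gives the same -0.26, and leaving out a library gave -0.286 to -0.235. The exon union in place of the longest coding transcript, chosen after seeing the data, gave a difference in the type I to type II ratio of -0.675 in place of -0.714, and the coding sequence, likewise added, -0.572. Members under 5 CPM rest on few counts, which limits their precision.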

Other observations

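Keratins with a letter in the symbol were outside the pattern, and their values are given here, looked up after those of the members were seen. Krt6a, a type II keratin known to be induced in stressed and wounded epithelia, had 174, 154 and 165 counts in CSC and 65, 42 and 58 in non-CSC, and was higher in CSC (log2 fold change of 1.83 ± 0.14 (SE), edgeR adjusted p = 1.01e-10). The hair keratin gene Krt33b had 111, 134 and 149 counts in CSC and 43, 44 and 53 in non-CSC (log2 fold change of 1.75 ± 0.14 (SE), edgeR adjusted p = 1.02e-10). Its neighbour in the family, Krt33a, had 30, 24 and 29 counts in CSC and 6, 8 and 9 in non-CSC (log2 fold change of 2.09 ± 0.28 (SE), edgeR adjusted p = 7.70e-07). Krt33a passed the filter only through its CSC libraries and had to differ, so its test is no support for the difference. Krt6b had 1, 2 and 5 counts in CSC and 2, 0 and 1 in non-CSC, too few to pass the filter. The pseudogene Krt8-ps, which shares sequence with Krt8, had 195, 256 and 254 counts in CSC and 209, 252 and 251 in non-CSC (log2 fold change of 0.24 ± 0.092 (SE), edgeR adjusted p = 0.0240), beside a log2 fold change of 0.27 for Krt8. Of the cornified envelope genes, Sprr2a1 had 41, 48 and 45 counts in CSC and 1, 4 and 2 in non-CSC (log2 fold change of 4.44, edgeR adjusted p = 4.69e-11), and Tgm1, which encodes the transglutaminase that cross-links the envelope, had 73, 97 and 108 counts in CSC and 30, 32 and 36 in non-CSC (log2 fold change of 1.76, edgeR adjusted p = 2.02e-09). Both were named after their values were seen. Sprr2a1 averaged 0.0679 ± 0.0429 CPM in non-CSC (SD, n = 3), under the filter's level of 0.331 CPM. Having passed only through its CSC libraries it had to differ, so its test is no support for the difference.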
